A study of Mus musculus with 9 samples.

Results

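Gene expression was compared between mouse hearts labelled day 158 and hearts labelled day 125, using all 9 hearts of the series: 5 from day 158 and 4 from day 125. All mice were C57BL/6. CnAtg mice carry an activated calcineurin A transgene, which the α-MHC promoter drives in cardiomyocytes. They received vehicle (1 heart from day 125, transgenic vehicle heart 1, and 2 from day 158, hearts 2 and 3) or the Jumonji demethylase inhibitor JIB-04 (50 mg/kg, given 3 times weekly, starting at 4 weeks; 1 heart from each day, JIB-04 hearts 1 and 2). Wild type mice received vehicle (hearts 1 and 2 from day 125, hearts 3 and 4 from day 158). Vehicle was likewise given 3 times weekly, starting at 4 weeks, in both genotypes. Group was a covariate in the comparison of days. The titles number the day 125 mice 2197 to 2200 and the day 158 mice 2542, 2543 and 2564 to 2566, with no number range shared by the days, so age, cohort and any batch of collection or processing cannot be told apart. In the transgenic mice a later day also means a longer exposure to the transgene. The series text has dosing run to day 158, whereas 4 hearts carry an age label of day 125, so the length of dosing in those mice is known only from that label. Nothing in the labels says whether hearts of one group came from separate litters, so p-values measure the spread between these hearts.

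Calcineurin is a calcium-dependent phosphatase that dephosphorylates NFAT factors and turns on a growth program in cardiomyocytes. The adult heart runs mainly on fatty acid oxidation and mitochondrial respiration, and it moves calcium with each beat through channels, the sarcoplasmic reticulum pump and the sodium-calcium exchanger. Levels are given in FPKM, a read density scaled by gene length and library size, and differences as day 158 minus day 125 on the log2(FPKM + 1) scale, which understates changes of low genes.

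The transgene label was visible in Ppp3ca, which encodes the calcineurin A catalytic subunit. Its level was 22.9 to 24.8 FPKM in the 4 wild type hearts and 1434 to 1762 FPKM in 4 of the 5 transgenic hearts, but 198.7 FPKM in transgenic vehicle heart 3. That heart, from day 158, also stood apart in Myh6, the adult myosin heavy chain, at 705.2 FPKM against 1755 to 2220 FPKM in the other transgenic hearts. Rcan1, a calcineurin target, was at 72.8 FPKM in it and at 97.7 to 169.4 FPKM in the other 4. Relative sequencing depth, estimated from the steps between low values, ran from 1 to 1.49 at day 125 and from 1.17 to 1.46 at day 158, and the days overlapped. The 13 genes of the mitochondrial chromosome held a varying share of the summed FPKM. The genes mt-Co3, mt-Atp8 and mt-Atp6 had a value of 0 in 7 hearts but 28960 to 50190 FPKM in JIB-04 heart 2 and in the third transgenic vehicle heart, while wild type heart 2 had 0 for mt-Co2 and mt-Co1. An exact 0 may therefore be a failed estimate in these files.

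Of 13487 genes tested, 51 differed between days (0.378%, limma, adjusted p under 0.05): 21 were higher at day 158 (0.156%) and 30 lower (0.222%). Within each of the 3 groups, every day 158 heart lay on the same side of every day 125 heart for all 51, which largely follows from choosing them by the day test on the same hearts; over all genes tested this held for 7.72% above and 10.4% below. The largest block among the lower genes was 13 genes of placental trophoblast families. The muscle genes Slc8a1 and Myocd were among the higher ones. Leaving out JIB-04 heart 2 and transgenic vehicle heart 3 together left 6 higher and 14 lower genes, and leaving out the 3 day 158 hearts with title numbers 2564 to 2566 left 2 and 2.

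Trophoblast cells of the placenta secrete hormones of the prolactin family, pregnancy-specific glycoproteins (Psg) and a set of placental cathepsin proteases, and spongiotrophoblast cells make trophoblast-specific proteins (Tpbpa and Tpbpb). These families, with Ceacam9 and Ceacam11 to Ceacam15, lie in clusters on chromosomes 7 and 13. They were chosen after their values were seen, so their counts are a description. The promoters of 4 of the called genes, one from each of 4 families, are shown because their genes fell together. Each is the 250 bases before the start of transcription, from RefSeq on GRCm38.p6, 5′ to 3′ on the gene's strand, with capitals for each match on either strand to the GATA factor words searched (AGATAA, also TGATAA, also AGATAG, also TGATAG).
Prl3b1, chr13:27242180-27242429, plus strand: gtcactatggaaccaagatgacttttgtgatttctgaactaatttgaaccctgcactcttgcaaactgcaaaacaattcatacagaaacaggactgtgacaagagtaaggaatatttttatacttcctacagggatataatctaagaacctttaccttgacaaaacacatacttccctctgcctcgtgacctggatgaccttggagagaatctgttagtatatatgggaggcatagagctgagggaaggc
Tpbpb, chr13:60904848-60905097, minus strand: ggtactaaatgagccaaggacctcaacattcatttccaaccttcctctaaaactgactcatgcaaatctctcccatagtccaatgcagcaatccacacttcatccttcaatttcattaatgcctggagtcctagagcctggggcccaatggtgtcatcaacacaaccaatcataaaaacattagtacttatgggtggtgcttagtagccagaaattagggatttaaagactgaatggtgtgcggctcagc
Ctsq, chr13:61040598-61040847, minus strand: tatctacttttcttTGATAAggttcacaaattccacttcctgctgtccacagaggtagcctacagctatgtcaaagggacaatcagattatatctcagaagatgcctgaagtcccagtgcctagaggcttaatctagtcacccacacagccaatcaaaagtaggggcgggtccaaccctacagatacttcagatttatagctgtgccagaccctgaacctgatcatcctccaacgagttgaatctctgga
Psg21, chr7:18656726-18656975, minus strand: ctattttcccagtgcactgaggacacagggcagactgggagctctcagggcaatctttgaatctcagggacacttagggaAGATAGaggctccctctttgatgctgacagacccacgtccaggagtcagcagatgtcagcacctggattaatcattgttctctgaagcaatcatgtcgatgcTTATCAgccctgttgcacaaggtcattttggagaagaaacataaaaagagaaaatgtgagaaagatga
The Ctsq window held 1 such word, the Psg21 window 2, and the Prl3b1 and Tpbpb windows 0. Among the promoters of all called genes of these families, 8 of 13 held at least 1 (61.5%, 12 genes matched), and 34 of 51 among the families as a whole (66.7%), against 26.5% of 32851 promoters. The AP-1 word TGANTCA, also searched on both strands, was in 7.69% of the called genes' promoters, 25.5% of the families' and 6.75% of all. TATAAA was searched on the gene's strand only and was in 0%, 9.8% and 7.59%. Words of different motifs could overlap. Related copies share sequence, so these promoters are not independent. The promoters compared were not matched for base composition, so the shares are a description.

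Prl3b1, a placental lactogen of the prolactin family, was at 7.82 FPKM in transgenic vehicle heart 1, 17.1 FPKM in JIB-04 heart 1 and 8.98 and 12.6 FPKM in wild type hearts 1 and 2. It was listed at 0 in all 5 day 158 hearts, so the days did not overlap, and the fitted difference was -3.57 (SE 0.169, limma adjusted p = 0.00032). Tpbpb was at 4.61, 8.51, 6.26 and 4.61 FPKM in the same 4 day 125 hearts and was listed at 0 at day 158 (-2.75, SE 0.142, limma adjusted p = 0.00033). The protease gene Ctsq was at 4.9, 10.5, 5.11 and 8.14 FPKM at day 125 and at most 0.0432 FPKM at day 158 (-2.92, SE 0.173, limma adjusted p = 0.00063). These 3 genes were lower at day 158 in the wild type and in the transgenic hearts when the genotypes were fitted apart.

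**Figure D1:**
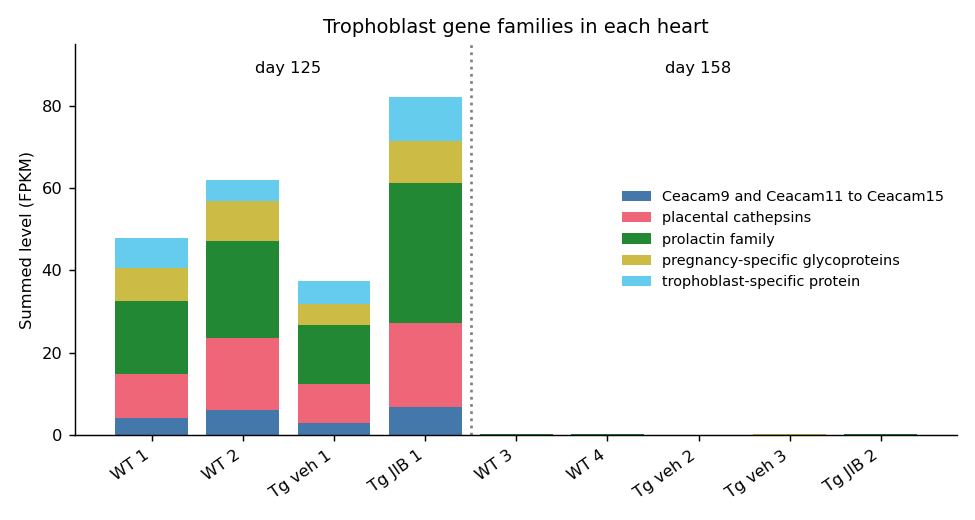
Summed level (FPKM, linear axis) of 5 trophoblast gene families in each heart, stacked by family; WT is wild type, Tg veh transgenic vehicle and Tg JIB transgenic with JIB-04. The 4 day 125 hearts reach 37.4 to 82.1 FPKM and the 5 day 158 hearts 0.133 to 0.318 FPKM, too low to be visible.

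Of 54 genes of these families listed, 44 were above 0 in some heart and 34 had every day 158 heart below every day 125 heart, and 0 had the reverse. All 4 day 125 hearts showed 36 of them above 0, and 25 of these were listed at 0 in all 5 day 158 hearts. The share of all genes with every day 158 heart below every day 125 heart was not computed. Among all 43154 listed genes, 26 reached 0.25 FPKM in every day 125 heart and stayed under 0.1 FPKM in every day 158 heart. Of these, 20 were from the families, and 0 genes had the reverse. Over all genes tested 0.222% were called lower. Only 14 of the 54 passed the filter on low values, which they did through the day 125 hearts. That makes their calls a description, and 13 of the 14 were called. Besides the 3 above these were Ctsj, Cts6, Prl8a9, Prl8a8, Prl8a6, Psg21, Psg16, Psg23, Ceacam11 and Ceacam12, and Ceacam14 was the exception (adjusted p = 0.078 by limma). JIB-04 heart 1 had the highest sum and transgenic vehicle heart 1 the lowest, and both stood far above every day 158 heart. The syncytiotrophoblast genes Gcm1, Syna and Synb were at most 0.108 FPKM in any heart. Members of these families are near copies, so the split of reads among them is uncertain; whether RNA of another tissue or sample entered the day 125 libraries was not tested.

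Slc8a1, the sodium-calcium exchanger that extrudes calcium from the cardiomyocyte, was higher at day 158 in every group. At day 125 it was at 36.9 and 36.3 FPKM in wild type hearts 1 and 2, 50.1 FPKM in transgenic vehicle heart 1 and 46.4 FPKM in JIB-04 heart 1. At day 158 wild type hearts 3 and 4 were at 58.9 and 75.6 FPKM, transgenic vehicle hearts 2 and 3 at 84.4 and 82.5 FPKM and JIB-04 heart 2 at 102.3 FPKM. The lowest day 158 heart lay above the highest day 125 heart, with a difference of 0.87 (SE 0.093, limma adjusted p = 0.0103). The gene (chr17:81388691-81649607, GRCm38) shares exon positions with AC122399.1 and Gm11096, which these non-directional reads cannot tell apart from it. The Slc8a1 call was lost in 5 of 9 leave-one-out fits, with a limma adjusted p of up to 0.060. It was also lost with no filter on low values (limma adjusted p = 0.063). Slc8a1 has an exonic length of 18807 bases, and long genes as a class lay higher at day 158 (below).

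Myocd encodes myocardin, a coactivator of serum response factor in cardiac and smooth muscle. It was at 8.67 to 9.87 FPKM in the 4 day 125 hearts and at 12.9 to 15 FPKM in the 5 day 158 hearts, with no overlap (0.56, SE 0.064, limma adjusted p = 0.016; chr11:65176561-65269989). The call was lost in 7 of 9 leave-one-out fits, with an adjusted p of up to 0.097. It was also lost with all hearts scaled to equal totals (0.49, limma adjusted p = 0.109). Cald1, which encodes the actin-binding protein caldesmon, was at 11.4 to 23.9 FPKM at day 125 and 18.9 to 32.4 FPKM at day 158; the ranges overlapped across groups but not within one (0.55, SE 0.072, limma adjusted p = 0.027). Hipk2, a nuclear kinase, rose from 4.2 to 6.2 FPKM to 9.7 to 14.6 FPKM (1.04, SE 0.144, limma adjusted p = 0.034). Its call was lost in 6 of 9 leave-one-out fits, with an adjusted p of up to 0.127.

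**Figure D2:**
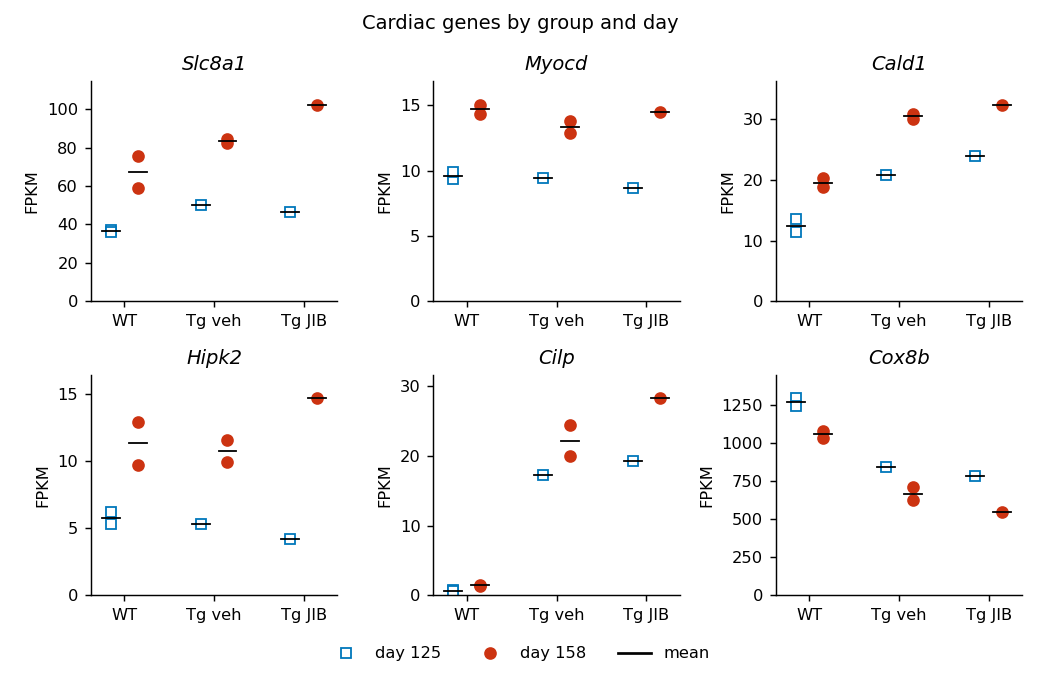
Level (FPKM, axes from 0) of 6 genes in each heart by group, open squares for day 125, filled circles for day 158 and a line for the mean. Slc8a1, Myocd, Cald1 and Hipk2 are called higher at day 158; Cilp (limma adjusted p = 0.068) and Cox8b (limma adjusted p = 0.077) separate within each group but are not called.

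The other called genes were mixed. Gm9870 showed the largest rise, from at most 2.64 FPKM at day 125 to 10.8 to 24.6 FPKM at day 158 (3.08, SE 0.389); it shares exon positions with Slain2, and these reads carry no strand. Gm7665 was listed at 0 in 3 day 125 hearts, at 0.871 FPKM in JIB-04 heart 1 and at 1.03 to 3.11 FPKM at day 158. It passed the filter on low values only through the day 158 hearts. 2310040G07Rik rose by 1.08 (SE 0.077, limma adjusted p = 0.0016), and Pm20d2 and Pdpr, the regulatory subunit of pyruvate dehydrogenase phosphatase, rose by 0.98 and 0.95; Pdpr shares exon positions with 9430091E24Rik. Of these, Gm9870 lost its call in 4, Gm7665 in 7, Pm20d2 in 5, Pdpr in 6 and 2310040G07Rik in 0 of 9 leave-one-out fits. Insig2, a brake on cholesterol synthesis, rose by 0.40, and Eif4ebp2, a translation repressor, by 0.62. Of the 21 higher genes 14 were protein coding. Outside the trophoblast families 17 genes fell, of which 5 were protein coding: Lyrm9, Ybx2, Actr3b, Ggnbp1 and Plxnb2. Ybx2 was at 40.9 and 38.9 FPKM in wild type hearts 1 and 2 and at 22.9 and 25.1 FPKM in hearts 3 and 4, and in transgenic hearts it went from 5.5 and 7.55 FPKM to 2.66 to 3.92 FPKM (-0.77, SE 0.115, limma adjusted p = 0.043). Gm12943 (-2.98) and Gm13610 (-2.05) were among the largest falls and are not protein coding; Gm13610 shares exon positions with Prrc2b. With one heart left out in turn, their calls were lost in 5 and 6 of 9 fits.

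In the 13 cardiac lists 2 of 381 genes tested were called (0.525%), a share near the 0.378% of all genes. In the calcium handling and adrenergic list 1 of 34 genes tested was called, and in the cardiac transcription factors 1 of 24; no gene was called in the sarcomere, fetal, ion channel, energy, matrix, calcineurin, clock, glucocorticoid or Jumonji lists. Over all genes the median difference was -0.03 and 44% lay above 0. The hypertrophy markers moved little: Nppa, atrial natriuretic factor, differed by 0.20 (SE 0.118, limma adjusted p = 0.41), Nppb by 0.19 and Myh7, the slow myosin heavy chain, by -0.01. The sarcomere list had a median of -0.01 over 35 genes. Tnni3, cardiac troponin I, was at 2102 to 3548 FPKM at day 125 and 1598 to 2859 FPKM at day 158 and lower within each group (-0.33, limma adjusted p = 0.083).

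Oxidative phosphorylation and citrate cycle genes, which carry the heart's respiration, had a median of -0.21, with 4 of 46 genes tested above 0. At an unadjusted p under 0.05, 29 were lower and 1 higher, against 12.1% lower and 6.69% higher over all genes; none passed the adjusted threshold. Cox8b, a heart isoform of cytochrome oxidase, was at 784.8 to 1292 FPKM at day 125 and 544.3 to 1078 FPKM at day 158 (-0.35, SE 0.069, limma adjusted p = 0.077). Cox6c differed by -0.28. Ogdh, of the citrate cycle, went the other way (0.22, SE 0.051, limma adjusted p = 0.085). Of 39 fatty acid genes 14 lay above 0, with a median of -0.06; Etfb, which passes electrons from fatty acid oxidation, differed by -0.35 and Ppara, the fatty acid sensing receptor, by 0.43. Ribosomal proteins had a median of -0.22 with 1 of 32 above 0 and 23 lower at an unadjusted p under 0.05.

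Of the matrix genes 31 of 46 lay above 0, with a median of 0.14. At an unadjusted p under 0.05, 3 were higher and 1 lower, a share of higher genes near the 6.69% of all genes. The median was 0.05 without transgenic vehicle heart 2, 0.06 without either JIB-04 heart, and 0.14 after the length correction (median exonic length 6073 bases). Cilp, a matrix protein of fibrotic heart, was at 0.529 and 0.722 FPKM in day 125 wild type hearts and 1.32 and 1.44 FPKM in day 158 ones, and at 17.3 to 19.3 FPKM against 19.9 to 28.3 FPKM in the transgenic hearts (0.48, SE 0.087, limma adjusted p = 0.068). Smooth muscle and pericyte markers had a median of 0.15 over 14 genes, with Myh11, smooth muscle myosin, at 0.43 and none called. Igf2, a fetal growth factor, differed by -0.38, and Sln, an atrial calcium pump inhibitor, by 1.26 (limma adjusted p = 0.29), with wild type heart 4 the highest at 7.98 FPKM. In the Jumonji family, which includes the demethylases that JIB-04 inhibits and also hydroxylases such as Hif1an, 15 of 26 lay above 0 and none was called; Hif1an had the smallest p (0.36, limma adjusted p = 0.078). Whether the shares of cells differ or the RNA in each cell does cannot be told apart in bulk hearts.

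**Figure D3:**
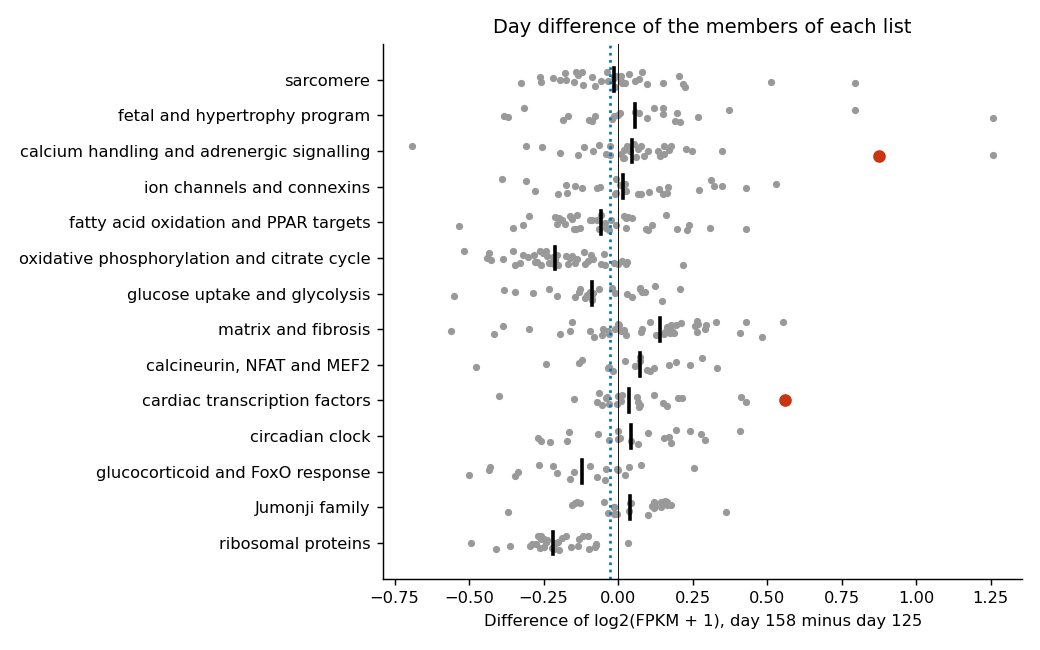
Difference of log2(FPKM + 1), day 158 minus day 125, for the tested members of 13 cardiac lists and the ribosomal proteins (grey points; red where called), with each list's median as a black bar and the median of all genes (-0.03) as a dotted line. Red points are Slc8a1 and Myocd; oxidative phosphorylation (-0.21) and ribosomal proteins (-0.22) sit farthest to the left.

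Differences moved with gene length. Over 11458 protein-coding genes the median was -0.26 for the 271 genes with an exonic length up to 1000 bases and 0.07 for the 2126 genes over 8000 bases (Spearman correlation across genes 0.402; genes are not independent replicates). In each heart the median level of genes over 8000 bases minus that of genes up to 2000 bases was -0.97 to -0.88 at day 125 and -0.76 to -0.58 at day 158, with no overlap. Among protein-coding genes over 8000 bases, 66.93% lay above 0, and at an unadjusted p under 0.05, 345 were higher and 86 lower. Of the called genes named above, Slc8a1 has an exonic length of 18807 bases, Cald1 12041, Hipk2 8836 and Myocd 6424, while Pm20d2 has 1834. The part of length in the rise of each gene was not tested. Among 733 processed pseudogenes, which lack introns, the median was -0.21. The oxidative phosphorylation list, of median exonic length 2611 bases, moved from -0.21 to -0.11 after a correction for length, and the ribosomal list, of 1918 bases, from -0.22 to -0.11. Under quantile normalization their medians were -0.05 and -0.07. The part of length in these results beyond that correction was not tested.

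**Figure D4:**
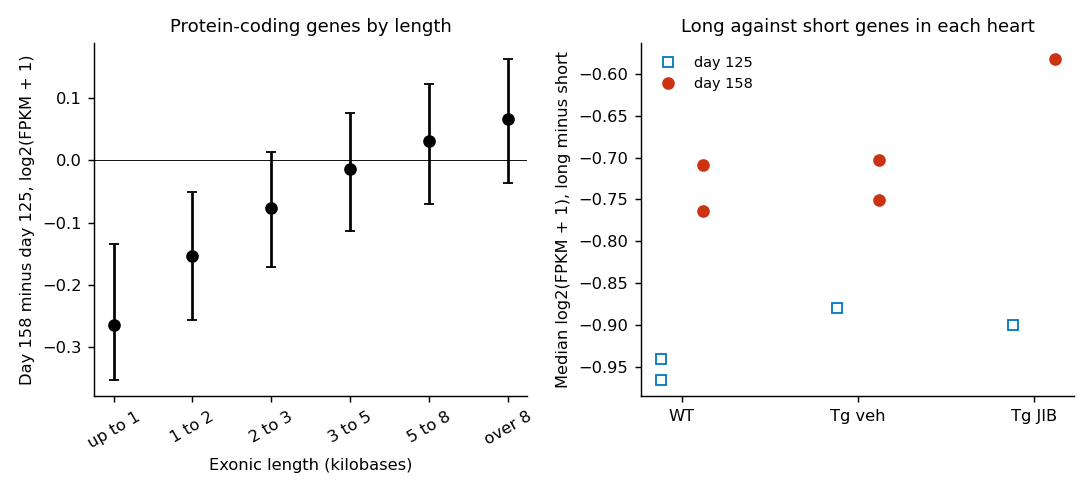
Left, median and quartiles of the day difference (log2(FPKM + 1)) of protein-coding genes by exonic length in kilobases; right, in each heart, the median log2(FPKM + 1) of genes over 8 kilobases minus that of genes up to 2 kilobases, on an axis that does not start at 0. Short genes lie below 0 on the left, and every day 158 heart lies above every day 125 heart on the right.

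The day difference was then fitted apart in each genotype. In wild type hearts 4 genes were called (0.0297%): Gm7665 was higher (0.00741%) and Prl3b1, Tpbpb and Ctsq lower (0.0222%). All 4 passed the filter on low values only through hearts of the day with the higher levels. These calls, and those of the same genes in transgenic hearts, are therefore a description. In transgenic hearts 6 were called (0.0445%): 2310040G07Rik was higher (0.00741%) and Prl3b1, Tpbpb, Ctsq, Gm11382 and Gm14448 lower (0.0371%). At an unadjusted p under 0.05 the shares were 8.36% in wild type hearts, 11.6% in transgenic hearts and 2.45% for the difference between genotypes. The difference between genotypes was called for 2 genes (0.0148%; 0 positive and 2 negative), both pseudogenes seen in 2 libraries only. They passed the filter on low values only through those libraries, so the call is a description of them. Gm11382 was at 51 FPKM in the first transgenic vehicle heart, 70.1 FPKM in JIB-04 heart 1 and was listed at 0 in the other 7 hearts. Gm14448 was at 7.28 and 7.6 FPKM in those 2 hearts and listed at 0 in the others. At a pseudocount of 0.1 neither was called (limma adjusted p = 0.056 and 1). For Slc8a1 the difference was 0.85 in wild type and 0.90 in transgenic hearts, and for Myocd 0.57 and 0.55. Across the 13487 genes, the sign of the day difference was shared by 67.1% (Pearson r 0.275, Spearman 0.428, across genes that share length and family).

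**Figure D5:**
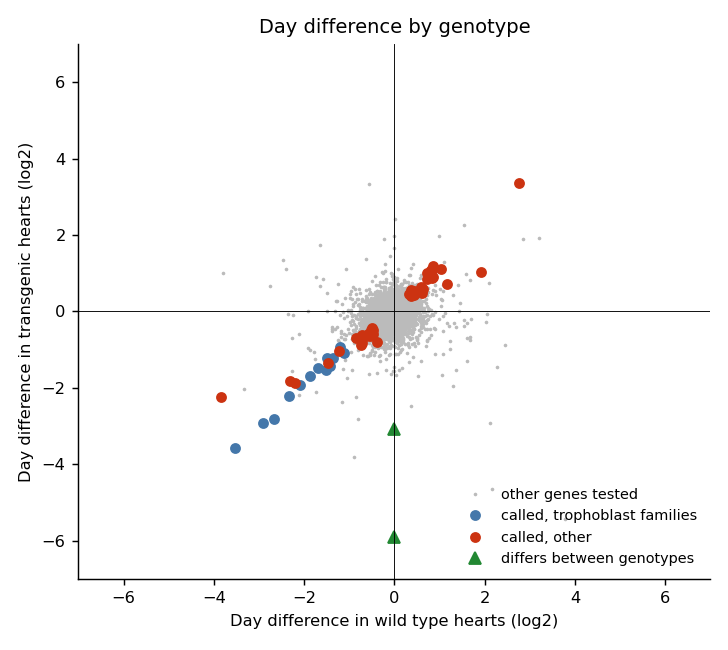
Day difference of log2(FPKM + 1) in wild type (x axis) and transgenic hearts (y axis) for the genes tested, with called genes of the trophoblast families in blue, other called genes in red and the 2 genes that differ between genotypes as green triangles; 5 mitochondrial genes listed at 0 in some hearts lie outside the axes. Called genes lie in the lower left and upper right of the plot. This follows from all 51 separating by day within each group, as they were chosen by the day test on the same hearts.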

How the data were processed

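RNA was extracted with Trizol and sequenced from non-directional libraries, per the labels' protocols. The submitters' processing notes name STAR 2.7.1a, Picard, GATK 4.1.2, Cufflinks 2.2.1 and GRCm38. The authors deposited 1 file per heart with log2 values of FPKM, per the file headers; the values fit log2(FPKM + 1), which was inferred from them. No counts were used here.

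All 9 hearts were fitted with limma 3.58.1 in R 4.3.3 (group and day, then with genotype by day; empirical Bayes with an intensity trend) over 13487 of 43154 listed genes that reached 1 FPKM in 2 or more hearts, with Benjamini-Hochberg adjustment over all of them and a threshold of 0.05. The fit of group and day was also run on simulated data with independent normal noise in each gene. No filter on low values was applied there, so that run does not cover the filter or a shift shared between genes. Genes were matched to GENCODE M21 by symbol and chromosome (91.041%). The number of replicates limits precision. Depth is unknown as a count. Its relative value was estimated from the ratio of low values (under 0.3 FPKM) between hearts; of several versions of this estimator, 2 of which gave wrong values, the one kept returned equal depth for a heart against itself and agreed across reference hearts within 0.07 (log2), a check made after seeing the estimates.

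The genes named were Rcan1 and Ppp3ca, the 6 strongest rises and 6 strongest falls among calls that separated in each group, up to 4 called members of each cardiac list or, without a call, the 2 with the smallest p, up to 2 called members of other lists, up to 5 genes that differed between genotypes, and mitochondrial genes listed at 0. Other genes named were chosen after their values were seen. So were the trophoblast families, the promoter words, and the alternatives with a length correction or protein-coding genes only. The members and lists were chosen with earlier results of these data known.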

Additional observations from a re-analysis of the deposited data

Results flagged for a closer look

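Among 55 groups of 4 or 5 hearts checked for a single far value, 2 had one; chance gives about 1 in 20 groups. Sln was at 7.98 FPKM in wild type heart 4 and listed at 0 in the other 3 wild type hearts. mt-Co2 was listed at 0 in wild type heart 2 and was at 94690 to 111800 FPKM in the other 3.

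The day difference of Gm11382 was lower in transgenic than in wild type hearts by -5.89 on the log2(FPKM + 1) scale (limma adjusted p = 0.00020), and that of Gm14448 by -3.07 (limma adjusted p = 0.0077). Both rest on 2 hearts, transgenic vehicle heart 1 and JIB-04 heart 1, through which alone they passed the filter on low values; the other 7 are listed at 0, which may be failed estimates. The p-values are therefore no independent evidence, and at a pseudocount of 0.1 they were 0.056 and 1 (limma, adjusted). For Ppp3ca every wild type heart was higher at day 158 and every transgenic heart lower within its group. The fitted difference of -1.03 did not pass the threshold (limma adjusted p = 1); transgenic vehicle heart 3 was at 198.7 FPKM, and without it the day difference over all groups was 0.00275.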

How the results depend on the processing

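All 51 called genes that were tested kept their direction under each of 28 alternatives, but the number called changed. As all 51 separate by day within each group, leaving hearts out could not reverse their direction. Against 21 higher and 30 lower genes, the count was 5 and 18 with no filter, 9 higher with equal totals, 149 higher with equal totals without mitochondrial and the 20 highest genes (80.5% of calls higher, against 41.2%), 25 and 36 with the median of ratios, 6 and 14 without transgenic vehicle heart 3 and JIB-04 heart 2, 2 and 2 without mice 2564 to 2566, 3 and 10 without mice 2542 and 2543, 3 and 14 in wild type hearts only, 0 and 3 in transgenic hearts only, 5 and 12 in vehicle hearts only, and, as alternatives added after seeing the data, 12 and 18 over protein-coding genes only and 16 and 25 with the length correction. With each heart left out in turn, 1 to 67 genes were higher and 8 to 220 lower; the highest counts came without transgenic vehicle heart 2 (67 and 220) and heart 3 (57 and 74), the lowest without wild type heart 4 (1 and 8). Prl3b1 and Tpbpb kept their calls in 26 of 28 alternatives, Ctsq in 25, Slc8a1 in 16, Hipk2 in 14, Pdpr in 15, Pm20d2 in 17 and Myocd in 13. Ctsj kept its call in 23 of 28, 2310040G07Rik in 23, Gm9870 in 15, Gm12943 in 15 and Gm13610 in 11 of 27, and Gm7665 in 12 of 26. Prl3b1, Tpbpb, Ctsq and Ctsj passed the filter on low values only through day 125 hearts, and Gm7665 only through day 158 hearts. How often these calls were kept is therefore a description. Every alternative reuses the same hearts, so none is independent evidence.

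Wild type calls (4) numbered 10 with no filter, 0 at 5 FPKM, 7 with equal totals, 15 without transgenic vehicle heart 3 and JIB-04 heart 2, 0 without mice 2564 to 2566, and 0 to 10 with one heart left out. Transgenic calls (6) numbered 26, 2, 10, 1 and 0 under the same settings, and 3 to 26 with one heart left out. Calls between genotypes (2) numbered 0 at a pseudocount of 0.1, 11 with no filter, 1 at 5 FPKM, 0 without mice 2564 to 2566, 6 without mice 2542 and 2543, and 0 to 6 with one heart left out. The cause of these changes was not tested. With the replicate number as a block, 2 genes were higher and 1 lower, 16 were called in wild type hearts, 13 in transgenic hearts and 0 between genotypes. The numbers do not pair the days, because day varies within number 2 only. After each gene's group mean was taken out, same-numbered hearts of one day correlated from -0.07 to 0.43. Differently numbered hearts of one day correlated from -0.07 to 0.36. The deviations of the 2 JIB-04 hearts mirror each other, so these values are not independent.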
